A study of Mus musculus with 20 samples.

Results

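Oxidative phosphorylation genes, which encode the respiratory chain and the ATP synthase of mitochondria, were followed over all groups of CD4+ iNKT1 cells of the study. Invariant natural killer T (iNKT) cells are T cells with a nearly uniform T cell receptor that recognizes glycolipids on CD1d, and iNKT1 cells are the interferon-gamma producing subset. Members were chosen by name (Nduf, Cox4 to Cox8, Uqcr, Sdha to Sdhd, Atp5 and the mitochondrial mt-Nd, mt-Co, mt-Cytb and mt-Atp genes) with a mean of at least 50 normalized reads, the read count of a gene after division by the size factor of its library. By name 110 of 53714 genes matched and 89 passed, 82 encoded in the nucleus and 7 in the mitochondrial genome. The other 21 were below 50 normalized reads on average, among them 11 listed at 0 in every library. A further 9 names with -ps were left out by the rule, among them Ndufb1-ps with a mean of 271. Closest to the limit were Atp5l (63.2) and Ndufs5 (66.3) inside it and Ndufaf6 (42.9) and Ndufb4 (31.1) outside it.

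The respiratory chain passes electrons from NADH through complex I and from succinate through complex II to complex III, and by way of cytochrome c to complex IV, which reduces oxygen. Complexes I, III and IV pump protons across the inner membrane and complex V, the ATP synthase, makes ATP from their return. Complex II is made of nuclear gene products alone, whereas the other complexes combine nuclear subunits with subunits that the mitochondrion transcribes from its own DNA as long precursors from both strands. T cells draw on this pathway in the resting state and for memory, and raise glycolysis upon activation.

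Total RNA was measured in 20 libraries. C57BL/6 N (BL6) cells came from spleen, liver, blood and thymus, with 3 libraries for each organ or preparation, and BALB/c cells from liver only. Liver was prepared in the cold by pressing tissue through a mesh (liver_C) or by warm digestion (liver_H, collagenase D plus DNase I, 30 min at 37 °C), with 3 BL6 libraries of each and 2 liver_C and 3 liver_H libraries of BALB/c. Spleen and thymus were meshed in the cold. Livers were perfused, divided between both preparations and passed over Percoll at 20 °C, which is not given for spleen, so that organ and these steps cannot be told apart in liver_C against spleen. All donors were female mice of 8 to 12 weeks, and a spleen or liver library held cells of 4 to 6 pooled mice. Cells were sorted as CD1d tetramer+ CD4+ and, outside the thymus, CXCR3+, whereas thymus cells were gated by CD122 and without CD138 as a plasma cell marker, so that organ and gate cannot be told apart in the thymus comparison. P-values measure the spread between these libraries.

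Depth was 9336861 to 22879834 reads per library. The library numbers fell into 3 ranges, range 1 (N0962 to N0972), range 2 (N1224 to N1229) and range 3 (N1376 to N1383), which the labels do not call batches. BL6 liver_H was of ranges 1 and 2 and BL6 liver_C of ranges 2 and 3, so only range 2 holds both. Spleen was of ranges 2 and 3, blood and thymus of ranges 1 and 3, and both BALB/c groups of ranges 1 and 2. Range and group can thus be told apart only in part. All 5 groups with a library of range 2 had their lowest nuclear sum in it. Of 8 fixed iNKT1 markers 7 had a mean of at least 10 normalized reads in every group, and Trav11 was listed at 0. The 2 marker genes of the pathway, mt-Co1 and mt-Nd1, summed to 34041 to 61147 normalized reads per library. Other cell types were visible at different levels. A list of 8 genes of double-positive thymocytes summed to 12181 to 26982 in thymus against 2307 to 2661 in spleen. The 7 B and plasma cell genes summed to 2050 to 2835 in spleen against 1603 to 1771 in BL6 liver_C. All 7 had a mean of at least 10 in spleen, but only 1 did in BL6 liver_C, where Jchain was at 0. The 6 hepatocyte genes reached 1185 in BALB/c liver_H replicate N0972 and were at 1.23 to 1.97 in spleen, where Apoa1, Serpina1a and Ttr were at 0, and the 5 erythroid genes reached 2264 in BALB/c liver_H replicate N0971. In bulk RNA, fewer cells of a type and less RNA per cell cannot be told apart.

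Only 7 of the 13 mitochondrial protein genes were counted at all. The genes mt-Co2, mt-Co3, mt-Atp6, mt-Atp8, mt-Nd3 and mt-Nd4l stood at 0 in all 20 libraries, although their products are core subunits of complexes IV, V and I. The first 3 of these and mt-Nd3 and mt-Nd4l each have a near-perfect nuclear copy in a run of 7 pseudogenes of 4663 bases on the minus strand of chromosome 1 (chr1:24611535-24616197, GRCm38), which ends inside mt-Co1 at one side and inside mt-Nd4 at the other. A pseudogene here is an annotated copy without a known product. The following stretches are as long as a read (75 bases) and are shown because they are the starts of a gene listed at 0 and of its nuclear copy, with capitals where the 2 sequences differ.
mt-Co2: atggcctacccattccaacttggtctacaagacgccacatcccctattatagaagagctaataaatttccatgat
Gm28661: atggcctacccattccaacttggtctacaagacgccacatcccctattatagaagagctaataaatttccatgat
mt-Nd3: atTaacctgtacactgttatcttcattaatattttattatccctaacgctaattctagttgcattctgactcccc
Gm28438: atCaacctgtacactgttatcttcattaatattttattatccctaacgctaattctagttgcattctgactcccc
The mt-Co2 stretch (chrM:7013-7087) and the Gm28661 stretch (chr1:24615491-24615565) were the same in every base, and so were the 681 aligned bases of both genes. The mt-Nd3 stretch (chrM:9459-9533) differed from Gm28438 (chr1:24613045-24613119) in the single capital base, the only difference in 345 aligned bases. mt-Co1 is shown next, because it is counted and yet shares its end with the same run of copies.
mt-Co1: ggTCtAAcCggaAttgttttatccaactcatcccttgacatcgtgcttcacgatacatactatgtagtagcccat
Gm29216: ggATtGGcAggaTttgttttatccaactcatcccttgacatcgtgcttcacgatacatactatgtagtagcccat
The mt-Co1 stretch (chrM:6381-6455) and Gm29216 (chr1:24616123-24616197) differed in 6 bases, all at the left end where the copy begins, and were the same from base 1067 of mt-Co1 to its last base.

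Cutting each gene into all windows of 75 bases gave the share that also occurs in another annotated gene. It was 99.9% for mt-Co3, 99.5% for mt-Co2 and mt-Atp6, 98.7% for mt-Nd4l and 97.8% for mt-Nd3. It was 61.5% for mt-Nd4 and 39.8% for mt-Co1, both counted, and 5.71% for mt-Nd2, 1.66% for mt-Nd5 and 0 for mt-Nd1, mt-Cytb and mt-Nd6. mt-Atp8 had no such window either and was still listed at 0, but lies partly on top of mt-Atp6. Only annotated transcripts were searched, so a copy of mt-Atp8 in the bases between the pseudogenes of the run could not be seen. The pseudogenes took up few reads themselves, with means between 0.152 and 14.7 normalized reads for the copies aligned. How the counting treated a read that fits 2 places or 2 genes was not given in the sources used here.

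**Figure D1:**
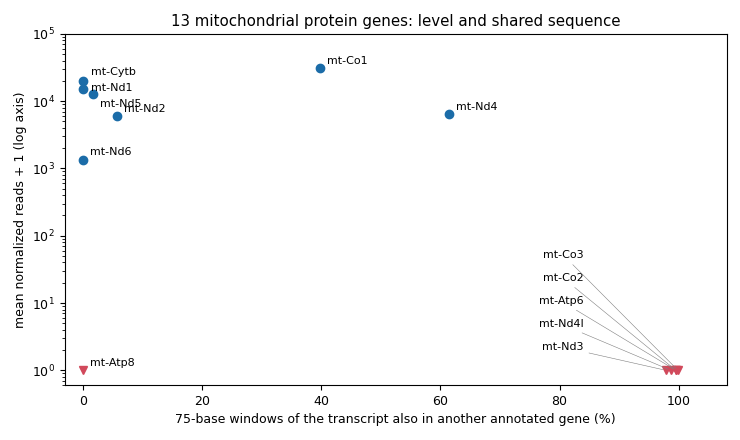
Mean normalized reads plus 1 over 20 libraries (log axis) of the 13 mitochondrial protein genes against the share of their 75-base windows that also occur in another annotated gene, with triangles for genes listed at 0. The genes at 97.8% and above are all listed at 0, while mt-Nd4 at 61.5% and mt-Co1 at 39.8% are counted. mt-Atp8 is at 0 with no window shared with an annotated gene, and bases outside annotated transcripts were not searched.

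The counted mitochondrial genes were the most abundant members. mt-Co1, the catalytic subunit of complex IV, had 20195 normalized reads per kb of gene on average, followed by mt-Cytb of complex III with 17656 and mt-Nd1 of complex I with 15589. The complex I genes mt-Nd5 with 6918, mt-Nd2 with 5854 and mt-Nd4 with 4597 per kb were lower, and mt-Nd6 was lowest with 2605 per kb. Per 1000 windows found nowhere else, mt-Nd4 rose from rank 6 to rank 4 (12620), mt-Co1 stood at 35256, and the order of the other genes was kept. mt-Nd6 is the single protein gene read from the other strand and its end overlaps mt-Nd5 (chrM:13552-14070 and chrM:11742-13565). Since the strand setting of the counting was not given, its reads and antisense reads cannot be told apart.

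Mitochondrial members took 0.613 to 0.957% of all reads of a library and nuclear members 0.352 to 0.530%. Nuclear genes thus gave 33.1 to 42.8% of all reads of members, with group means from 35.3% ± 2.38 (SD, n = 3) in BL6 liver_H to 40.4% ± 3.41 (n = 2) in BALB/c liver_C. Within the nuclear sum complex V had 35.6% ± 1.604 and complex I 29.5% ± 1.43, complex IV 15.3% ± 0.813, complex III 10.6% ± 0.665 and complex II 7.22% ± 0.580 over the 20 libraries. Such shares follow the number and length of genes as well as their activity. The mitochondrial ribosomal RNAs, which the rule does not include, took 10.1 to 20.9% of the reads.

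Per kb of gene, the median nuclear member of complex IV had 645 normalized reads, that of complex V 434, of complex III 354, of complex II 280 and of complex I 254. The 7 assembly factors of complex I, which help to build it and are not part of it, had a median of 58.2. Within a complex the levels were far apart. The ATP synthase stalk subunit Atp5h had 2209 per kb and the complex IV subunit Cox8a 2012, while Atp5l, subunit g of the ATP synthase, had 9.80 and Ndufab1, the mitochondrial acyl carrier protein that is also a complex I subunit, had 12.8. Both have long gene models. That of Atp5l spans 6443 bases with a transcript with a retained intron of 6310 bases, against 544 bases for its longest coding transcript, and 63.4% of the windows of its coding transcripts also occur in other genes. Ndufab1 is 6883 bases long and shares 8.30% of such windows. In complex II the order was Sdha, the flavoprotein that binds succinate, with 601 per kb at the top and the membrane anchor Sdhc with 168 at the bottom. In complex III the hinge protein Uqcrh had 1236 and the core subunit Uqcrc1 238, and in complex IV Cox7c had 133. Among assembly factors Ndufaf8 had 232 and Ndufaf2 35.7.

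**Figure D2:**
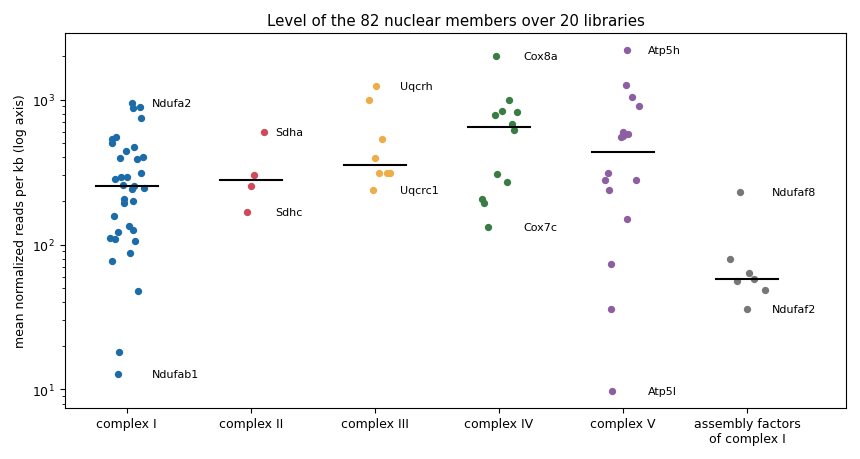
Mean normalized reads per kb of gene over 20 libraries (log axis) of the 82 nuclear members, 1 point per gene, by complex, with the median (line) and the highest and lowest gene named. The points span 9.80 (Atp5l) to 2209 (Atp5h).

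Where a subunit has alternative genes, the iNKT1 cells expressed the form known from most tissues. Cox4i1 had 1555 normalized reads (1016 to 2127 over the libraries), and its lung form Cox4i2 was at 0. Cox6a1 with 574 stood against Cox6a2 of heart and muscle with 0.430, and Cox7a2 with 292 against the muscle form Cox7a1 with 1.09. Cox8a had 1097, and Cox8b and Cox8c were at 0. Cox6b1 had 479 against 0.997 for the testis form Cox6b2, and Cox7b had 1010 against 0 for Cox7b2. Ndufa4, now counted among complex IV subunits, had 374 against 0.158 for Ndufa4l2. The 3 genes for the identical subunit c of the ATP synthase ring were all on, with Atp5g3 at 682, Atp5g1 at 176 and Atp5g2 at 123 normalized reads (313, 35.9 and 73.3 per kb), although 35.8% of the coding windows of Atp5g2 also occur in pseudogenes.

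The spread of the members was set beside that of all genes. The SD of log2(value + 1) over 20 libraries had a median of 0.28 for members, 0.25 for the mitochondrial and 0.29 for the nuclear ones, and 0.32 for all 9545 genes with a mean of at least 50. The highest group mean was a median of 1.38 times the lowest, under 1.5 times for 58 members, 1.5 to 2 times for 29 and at least 2 times for 2, Atp5l (4.04) and Ndufab1 (2.45). A limma test for any difference between the 7 groups, adjusted by Benjamini-Hochberg over 14170 genes, called 4 of 89 members (4.49%), Sdhb, Atp5l, Ndufab1 and Atp5mpl, where it called 24.7% of all genes tested and 26.5% of those with a mean of at least 50. With library range as a block it called 17 members (19.1%) and 29.1% of all genes. Without the block limma called none of the 7 mitochondrial members, with 3 at an unadjusted p under 0.05 against 5247 of all 14170 genes. With the block it called mt-Cytb, mt-Nd1, mt-Nd2, mt-Nd4 and mt-Nd6 among its 17 members. Limma also called mt-Cytb after quantile normalization and mt-Nd4 with the BL6 libraries alone. DESeq2 called 3 mitochondrial genes among its 10 members (mt-Cytb, mt-Nd4 and mt-Nd6) and edgeR called 5 members. DESeq2 called 31.5% and edgeR 23.3% of all genes.

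Sdhb, the iron-sulfur subunit of complex II, had 563, 679 and 757 normalized reads in BL6 spleen, 506, 618 and 713 in liver_C, 591, 626 and 576 in blood and 629, 767 and 703 in thymus. It had 409, 595 and 446 in BL6 liver_H, 591 and 574 in BALB/c liver_C and 471, 351 and 284 in BALB/c liver_H. The digested livers were thus at the low end in both strains, with an overlap of liver_H and liver_C in BL6 and none in BALB/c. The test over the groups gave an adjusted p of 0.0054 (limma), and 0.0015 to 0.025 with each library left out in turn. When only the 15 BL6 libraries were fitted, the adjusted p was 0.086. Its liver_H minus liver_C difference was -0.35 (log2 scale, SE 0.18, limma adjusted p = 0.49) in BL6 and -0.69 (SE 0.20, adjusted p = 0.15) in BALB/c, neither past the threshold. With library range as a block the BALB/c value was -0.73 with an adjusted p of 0.031.

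Atp5l had 69.7, 127 and 99.4 normalized reads in spleen, 49.5, 59.98 and 41.7 in BL6 liver_C and 39.8, 6.01 and 27.4 in BL6 liver_H. It had 72.9, 57.1 and 103 in blood, 73.3, 70.4 and 71.3 in thymus, 47.7 and 47.5 in BALB/c liver_C and 69.3, 79.0 and 51.5 in BALB/c liver_H. All 3 BL6 liver_H libraries were below every other library, and N0969 stood far below the rest. The adjusted p over the groups was 0.015 (limma), and 0.004 to 0.037 with each library left out.

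Ndufab1 had 48.2, 40.6 and 43.7 normalized reads in BL6 liver_H, the 3 lowest values of all. It had 81.4, 81.7 and 98.0 in BL6 liver_C, 107, 72.8 and 115 in spleen, 99.8, 109.97 and 99.0 in blood and 119, 127 and 60.8 in thymus. The BALB/c values were 107 and 109.5 in liver_C and 70.7, 67.9 and 96.5 in liver_H, again without overlap and lower after digestion. The adjusted p over the groups was 0.023 (limma) and rose to at most 0.095 when a library was left out, with the call lost without each of the 3 BL6 liver_H libraries. Atp5mpl, a small proteolipid of the ATP synthase, had 1163, 1157 and 1156 in blood, the tightest group, and 2172 and 1255 in BALB/c liver_C. It had 1651, 2518 and 1955 in BALB/c liver_H, 1371, 1749 and 1282 in BL6 liver_H and between 1120 and 1779 in the remaining libraries. Its adjusted p over the groups was 0.047 (limma), and the call was made with 5 of 20 libraries left out singly and in 4 of 8 other settings.

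**Figure D3:**
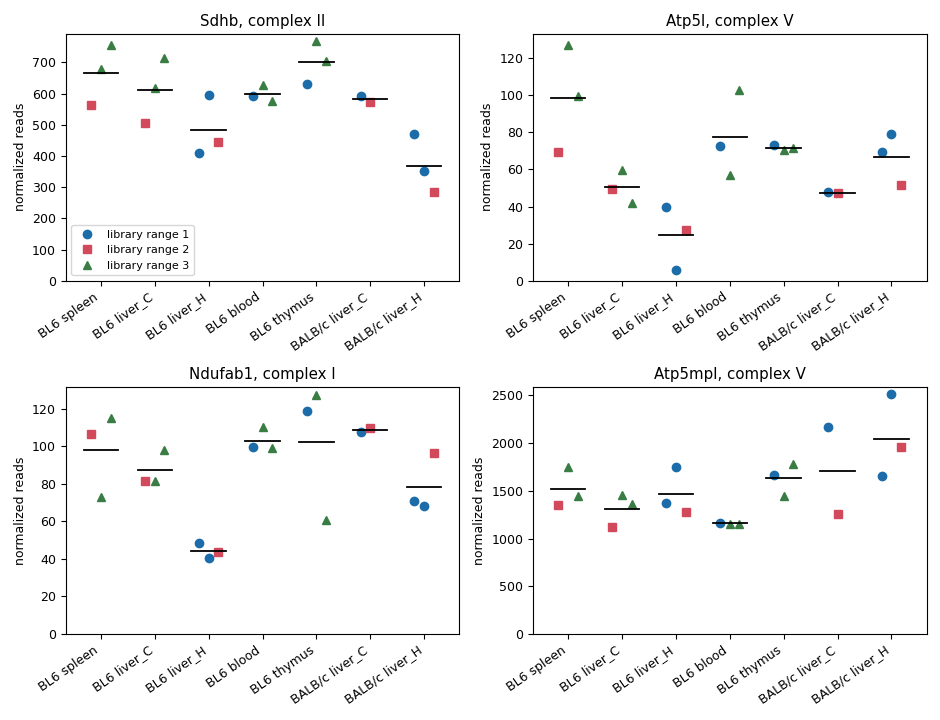
Normalized reads of Sdhb, Atp5l, Ndufab1 and Atp5mpl in each library (points, shaped by library range) with the group mean (line), by group. The BL6 liver_H libraries are the lowest of all for Atp5l (6.01 to 39.8) and Ndufab1 (40.6 to 48.2), and BALB/c liver_H holds the 2 lowest Sdhb values (284 and 351).

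Promoters of 3 of these genes are shown, because their levels differed between groups, with 250 bases before and 50 after the RefSeq start on GRCm38 and capitals for the NRF1 motif GCGCATGCG read on either strand. NRF1 is a transcription factor known to act on many respiratory chain genes.
Atp5l: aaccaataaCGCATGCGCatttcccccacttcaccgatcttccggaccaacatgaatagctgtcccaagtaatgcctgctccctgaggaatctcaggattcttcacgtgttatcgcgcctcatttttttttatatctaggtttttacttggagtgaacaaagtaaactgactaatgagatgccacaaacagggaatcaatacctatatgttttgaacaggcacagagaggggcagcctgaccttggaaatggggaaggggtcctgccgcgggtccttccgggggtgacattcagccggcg
Ndufab1: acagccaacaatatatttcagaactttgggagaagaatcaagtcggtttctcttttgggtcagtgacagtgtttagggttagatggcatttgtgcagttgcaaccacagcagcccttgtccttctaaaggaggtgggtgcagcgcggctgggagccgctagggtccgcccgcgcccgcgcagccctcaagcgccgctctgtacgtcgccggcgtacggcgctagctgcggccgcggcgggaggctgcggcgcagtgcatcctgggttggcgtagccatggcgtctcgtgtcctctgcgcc
Sdhb: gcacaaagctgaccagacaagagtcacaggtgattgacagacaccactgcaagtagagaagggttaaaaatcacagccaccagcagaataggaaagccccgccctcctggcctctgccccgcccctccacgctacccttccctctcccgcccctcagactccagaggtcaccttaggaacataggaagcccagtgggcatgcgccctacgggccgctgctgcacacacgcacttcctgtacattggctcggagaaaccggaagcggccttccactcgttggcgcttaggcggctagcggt
The windows lie at chr9:44920693-44920992 on the minus strand (Atp5l), chr7:122101799-122102098 on the minus strand (Ndufab1) and chr4:140961021-140961320 on the plus strand (Sdhb). The motif occurred once in the Atp5l window and in neither of the others. Of 82 nuclear members 69 matched a promoter entry, with 1 window for each, the one nearest to the gene start. The windows of all genes were every entry, which can be more than 1 for a gene, so the shares below rest on windows chosen differently. The NRF1 motif was in 14.5% of their windows against 1.75% of 32851 windows of all genes, the YY1 motif AAGATGGCG in 10.1% against 1.40%, and the ETS motif CCGGAAGT in 7.25% against 3.89%, each on both strands. At least 1 of the 3 was in 30.4% against 6.69%. These are matches of letters and no measure of binding.

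Cold-prepared liver cells were compared with spleen cells, which asks how the organ bears on these genes with the preparation kept cold. mt-Cytb, the core of complex III, had 19299, 25378 and 24413 normalized reads in spleen and 14677, 19642 and 16273 in liver_C. It was lower by 0.45 on the log2 scale in liver_C (SE 0.17, limma adjusted p = 0.35), with one spleen library among the liver values. No member was called by limma, edgeR or DESeq2, where limma called 1.23% of all genes. At an unadjusted p under 0.05 limma had 5 of 89 members, all lower in liver_C, and 1318 of all 14170 genes. All 7 mitochondrial members and 74 of 82 nuclear members had a fitted difference below 0, with medians of -0.39 and -0.18 against -0.01 for all genes. Nuclear medians were alike by complex, from -0.21 in complex IV to -0.16 in complex II. In 9 members (10.1%) every liver_C library was below every spleen library, against 9.87% of all genes. For 82 members the 95% interval of the difference lay within 2-fold in either direction.

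**Figure D4:**
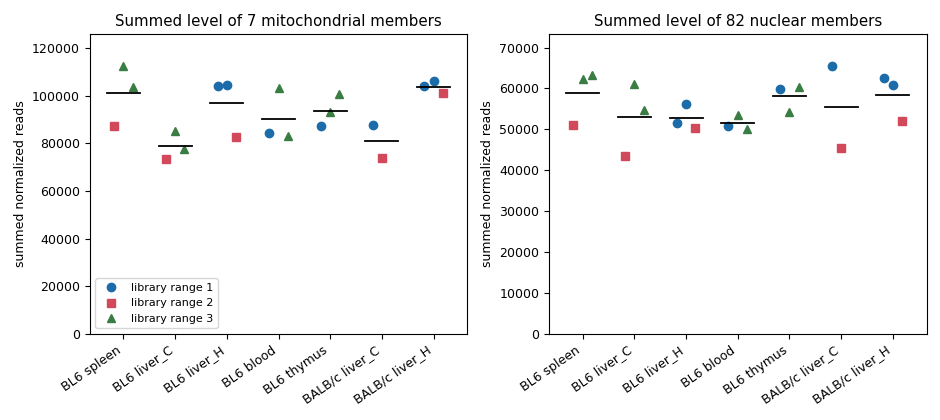
Sum of normalized reads over the 7 mitochondrial and over the 82 nuclear members in each library (points, shaped by library range) with the group mean (line), by group. The mitochondrial sums of BL6 liver_C lie between 73504 and 85329, all below the spleen libraries, and those of BALB/c liver_H at 100898 to 106065 all above BALB/c liver_C, a separation that is lost after scaling to non-mitochondrial reads.

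The mitochondrial members summed to 87041, 112498 and 103622 normalized reads in spleen and to 73504, 85329 and 77527 in liver_C, without overlap. The ratio of means was 0.780, 0.845 within range 2 and 0.754 within range 3. The nuclear sum overlapped between both groups with a ratio of 0.902. The 2 sums are levels and were compared as values, without a test of their own. Marker sums moved with this comparison without overlap. The Kupffer cell and macrophage genes summed to 192 to 338 in spleen against 52.0 to 91.0 in liver_C. Of this list Clec4f and Vsig4 were at 0 in every spleen library, whereas no gene was at 0 in all liver_C libraries. The iNKT1 genes summed to 32309 to 37025 against 46349 to 48856, beside the B and plasma cell genes given above. The part of these markers was not tested.

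Blood cells were next set against spleen cells, with the circulating pool as the question. Blood replicates N1378 and N1382 came from fewer sorted cells than any spleen library, whereas N0962 lay among the spleen libraries. Organ and cell number can thus be told apart only in part, and the part of cell number was not tested. Ndufa5, an accessory subunit of complex I, had 363, 431 and 412 in blood and 492, 690 and 651 in spleen, without overlap, a difference of -0.59 (SE 0.18, limma adjusted p = 0.11). No member was called by limma, edgeR or DESeq2, where limma called 1.82% of all genes. At an unadjusted p under 0.05 limma had 6 of 89 members, all nuclear and lower in blood, and 1835 of all 14170 genes. Of 89 members 79 were below 0, with medians of -0.23 for nuclear and -0.20 for mitochondrial ones against -0.02 for all genes. The comparison shares its spleen libraries with that of liver_C, so the lower values in both are not independent. In 20 members (22.5%), all nuclear and 11 of them in complex I, each blood library was below each spleen library, against 11.2% of all genes. The ratio of nuclear sums was 0.874 and of mitochondrial sums 0.893, and both sums overlapped. With library range as a block limma called 9 members, all lower in blood (Ndufb5, Sdhd, Ndufb11, Cox5b, Cox7a2l, Ndufa5, Ndufa6, Uqcrh and Cox6c, 10.1% against 7.07% of all genes). With the 6 libraries alone it called Ndufa5 and Ndufa6 (2.25%, against 5.36% of all genes). The platelet and erythroid genes in blood, which reached 116 and 1568 in summed normalized reads against 4.10 and 149 in spleen, moved with this comparison, and their part was not tested.

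In thymus 1 member was called, Ndufv3, an accessory subunit of the NADH-binding arm of complex I. It had 616, 557 and 399 normalized reads in thymus and 658, 790 and 798 in spleen, and no thymus library reached a spleen library. The difference was -0.53 (SE 0.16, 95% interval -0.87 to -0.19, limma adjusted p = 0.041), where 9.84% of all genes were called. It was no longer called without spleen replicate N1377 (-0.49) or N1381 (-0.48) or thymus replicate N1376 (-0.59) or N1380 (-0.35), nor after scaling to non-mitochondrial reads (adjusted p = 0.053), without a filter (0.083) or with both groups fitted alone (0.07). With library range as a block 5 members were called (5.62%, against 11.8% of all genes). The medians were -0.03 for nuclear and -0.13 for mitochondrial members, from 0.09 in complex V to -0.18 in the assembly factors, and 84 members had an interval within 2-fold. The thymus sums overlapped with spleen for both genomes, at ratios of 0.926 and 0.988. The double-positive thymocyte genes were higher in every thymus library than in any spleen library (sums given above), and their part in the Ndufv3 value was not tested.

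**Figure D5:**
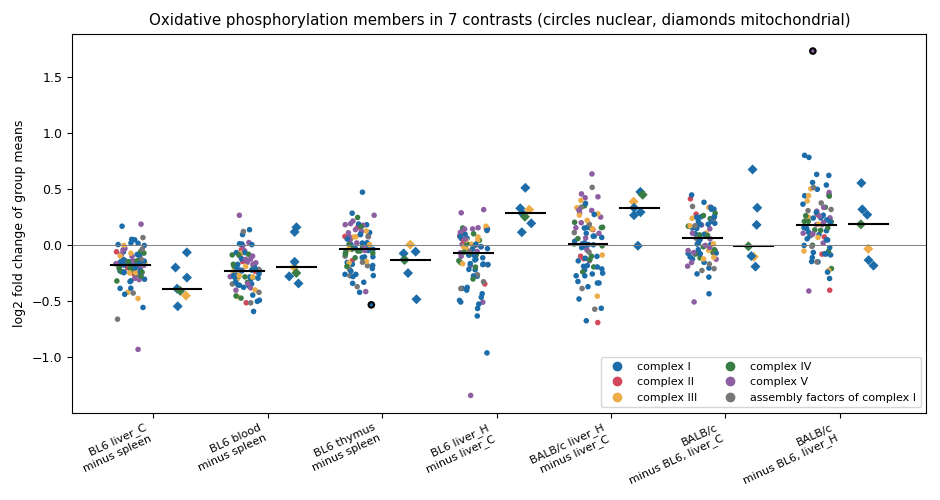
Fitted log2 difference of each member in 7 comparisons, circles for nuclear and diamonds for mitochondrial genes, coloured by complex, with the median of each set (line) and a dark edge on members called by limma. All diamonds lie below 0 in liver_C minus spleen and above 0 in BL6 liver_H minus liver_C (5 of 7 above 0 when scaled to non-mitochondrial reads), while the nuclear medians lie between -0.23 and 0.18.

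Enzymatic digestion at 37 °C was compared with cold preparation of liver in both strains. By the labels, every BALB/c liver_H library came from fewer sorted cells than either BALB/c liver_C library. Preparation and cell number thus cannot be told apart in BALB/c. In BL6 every liver_H library except N0963 came from fewer sorted cells than any liver_C library. The part of cell number was not tested. mt-Nd4 had 5429, 5399 and 5266 normalized reads in BL6 liver_C and 8510, 8293 and 6309 in liver_H, and 4692 and 5351 in BALB/c liver_C against 5907, 6580 and 8666 in liver_H. The groups did not overlap in either strain. The difference was 0.51 in BL6 (SE 0.15, limma adjusted p = 0.13) and 0.47 in BALB/c (SE 0.17, limma adjusted p = 0.27), and DESeq2 called it in BL6 (0.52, adjusted p = 0.039). No other member was called in BL6 by these tools, and limma and edgeR called none, where limma called 1.05% of all genes. At an unadjusted p under 0.05 limma had 7 of 89 members, 2 higher and 5 lower, and 1624 of all 14170 genes. In BALB/c no member was called by limma, edgeR or DESeq2, where limma called 0.628% of all genes. At an unadjusted p under 0.05 limma had 4 of 89 members and 1678 of all 14170 genes there. In BL6 every liver_H library was above every liver_C library in 3 members (3.37%, against 10.3% of all genes) and below in 7 (7.87%, against 9.62%), and in BALB/c above in 5 (5.62%, against 9.2%) and below in 3 (3.37%, against 9.05%).

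All 7 mitochondrial members were above 0 in BL6 and 6 of 7 in BALB/c, where mt-Nd6 was at -0.01, with medians of 0.28 and 0.33. The nuclear medians were -0.07 and 0.01. When values were scaled to the reads outside the mitochondrial genome instead, the median of all genes moved to -0.20 in BL6 and -0.18 in BALB/c. On that scale the mitochondrial medians were 0.08 and 0.12, above 0 for 5 and 6 of the genes, and the nuclear medians -0.28 and -0.20. The mitochondrial sum was 104050, 104229 and 82553 in BL6 liver_H, which overlapped with liver_C (ratio 1.23, and 1.12 within range 2). It was 103852, 106065 and 100898 in BALB/c liver_H against 87550 and 73993 in liver_C (ratio 1.28, and 1.20 and 1.36 within ranges 1 and 2), without overlap. Scaled to non-mitochondrial reads, the mitochondrial sums of the BALB/c groups overlapped, with 92147, 81692 and 115757 in liver_H against 84027 and 88196 in liver_C. The ratios were then 1.06 in BL6 and 1.12 in BALB/c. On the first scale the nuclear sums overlapped in both strains. Their ratio was 0.992 in BL6, but 1.15 within range 2. In BALB/c it was 1.05, and 0.940 and 1.15 within ranges 1 and 2. Hepatocyte genes summed to 21.5 to 123 in BL6 liver_H against 6.20 to 29.0 in liver_C, and to 7.50 to 1185 against 12.8 to 162 in BALB/c, and their part was not tested.

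Ndufab1 and Atp5l lay at the low end of this comparison in BL6. The difference was -0.96 for Ndufab1 (SE 0.28, limma adjusted p = 0.12) and -1.34 for Atp5l (SE 0.46, limma adjusted p = 0.20), both without overlap and not past the threshold. In BALB/c it was -0.48 for Ndufab1 (SE 0.32) and 0.46 for Atp5l (SE 0.52). The difference of the effect between the strains, tested for all genes, called no member and no gene of all tested by limma, with 1 member and 610 genes at an unadjusted p under 0.05. DESeq2 and edgeR called no member. That member was Atp5l, with a difference of 1.79 (95% interval 0.35 to 3.24, limma adjusted p = 1). Only 58 members had an interval within 2-fold here, so that the data set a loose limit on a strain difference.

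The strains themselves were compared within each preparation. In liver_C no member was called by limma, edgeR or DESeq2, where limma called 3.52% of all genes. At an unadjusted p under 0.05 limma had mt-Nd6 alone (0.67 higher in BALB/c, adjusted p = 0.27) and 1673 of all 14170 genes. mt-Nd6 had 1004, 1264 and 921 in BL6 and 2164 and 1303 in BALB/c, without overlap. In liver_H limma called Atp5l, which was 1.73 higher in BALB/c (SE 0.46, 95% interval 0.77 to 2.69, adjusted p = 0.028), where it called 6.1% of all genes, and DESeq2 called the same single gene (adjusted p = 0.014) and edgeR none. Without BL6 replicate N0969 the Atp5l difference was 0.97 (limma adjusted p = 0.15), and the call was also lost without BALB/c replicate N0971 or N0972. In 14 members (15.7%) each BALB/c library was above each BL6 library, against 10.1% of all genes, and the nuclear and mitochondrial medians were both 0.18. The assembly factors had the highest median of the nuclear sets (0.31) and complex II the lowest (0.00). Without BALB/c replicate N1229, 6 of 89 members were called. The share of all genes in that fit is not set beside it, so the count is no result about the members. The liver_H libraries of both strains also differed in the summed B and plasma cell genes. The sums were 1602 to 1779 in BL6 against 244 to 676 in BALB/c. Of the 7 genes, however, only 2 had a mean of at least 10 in BL6 liver_H, against 4 in BALB/c liver_H. This difference was not tested for a part in the result. Every BALB/c liver_H library also came from fewer sorted cells than any BL6 liver_H library. Strain and cell number thus cannot be told apart in liver_H, and the part of cell number was not tested.

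Genes that build, feed or control the respiratory chain were read from further lists. The limma test over the 7 groups, which called 24.7% of all genes, called 3 of 4 inner membrane carriers and 2 of 7 electron carriers (28.6%). Slc25a4, which exchanges ADP for ATP across the inner membrane, had 247, 302 and 269 normalized reads in spleen and 936, 787 and 889 in thymus, an increase of 1.67 (SE 0.19, limma adjusted p = 4.5e-06). Its counterpart for phosphate, Slc25a3, and the uncoupling protein Ucp2 were called over the groups but in none of the 8 comparisons. Of the electron carriers Cycs (cytochrome c) and Etfb were called, and Etfb, a subunit of the electron transfer flavoprotein, fell by 1.42 in thymus against spleen (SE 0.32, limma adjusted p = 0.0059), from 83.6, 72.8 and 114 to 27.8, 31.1 and 39.9.

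Of 14 assembly genes for complexes II, III and V, 3 were called over the groups (Sdhaf1, Tmem70 and Uqcc1), which is 21.4% against 24.7% of all genes. Sdhaf1, which helps to insert iron-sulfur clusters into Sdhb, had 362, 307 and 395 in spleen, 99.8, 160 and 117 in blood and 165, 89.6 and 172 in thymus. It was lower in both without overlap, by -1.51 in blood (SE 0.30, limma adjusted p = 0.0098) and by -1.36 in thymus (SE 0.30, adjusted p = 0.0039), 2 comparisons that share the spleen libraries. The call in blood was lost without spleen replicate N1381 or blood replicate N0962 (adjusted p up to 0.062). Sdhb itself differed by -0.15 and 0.08 in these comparisons (SE 0.18 for both, limma adjusted p = 0.79 and 0.90). Atpif1, the inhibitor of the ATP synthase, was 0.87 higher in thymus (SE 0.22, limma adjusted p = 0.014), with 393, 738 and 705 against 296, 395 and 288, a call that was lost without spleen replicate N1226 or N1381 or thymus replicate N1376 or N1380 (adjusted p up to 0.098). Of 16 complex IV assembly genes only Cox10, which makes heme for complex IV, was called, with a difference of -0.66 in thymus (SE 0.15, limma adjusted p = 0.0062), from 525, 452 and 484 in spleen to 273, 331 and 322.

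The mitochondrial ribosome was called in 9 of 77 genes over the groups (11.7%), and mitochondrial transcription and RNA genes in 1 of 20 (5.0%, Mterf4), against 24.7% of all genes. The tricarboxylic acid cycle had 0 of 13 genes called by limma and edgeR and 1 by DESeq2. In limma 3 of the 13 had an unadjusted p under 0.05, against 5247 of all 14170 genes. Of the ribosome genes Mrps14 was higher in BALB/c than in BL6 liver_H (0.94, SE 0.22, limma adjusted p = 0.012) in all 8 other settings, with 247, 332 and 232 in BL6 and 566, 570 and 421 in BALB/c, and was no longer called without BL6 replicate N0963 or N1225 or BALB/c replicate N0972. Mrps5, Mrps30 and Mrpl48 were lower in BALB/c in one or both preparations, calls that were lost in 2 to 5 of the 8 other settings. Of the 9 ribosomal and transfer RNAs of the mitochondrion that passed the filter limma called none over the groups, 1 had an unadjusted p under 0.05, and 1 was called by each of edgeR and DESeq2. In the single comparisons limma called mt-Tl1, a leucine transfer RNA, between the strains in liver_H (3.47 higher in BALB/c, SE 0.98, adjusted p = 0.039). Its values were low, with 0, 1.50 and 0 in BL6 and 12.7, 28.4 and 7.50 in BALB/c. The call was made in 3 of the 7 other settings that tested it and with 13 of 17 libraries left out singly. However, mt-Tl1 passed the filter only through the BALB/c liver_H values of 12.7 and 28.4 and 1 spleen library at 14.8. The filter thus selected in part on the difference tested, and no conclusion is drawn from this call. Of 8 tested regulators of mitochondrial genes only Myc was called. Myc had 394, 312 and 335 in spleen, 747, 680 and 726 in liver_C, 554, 700 and 657 in blood and 999, 1167 and 1005 in thymus, and spleen was below every other group. The increase over spleen was 1.05 in liver_C (limma adjusted p = 0.00089), 0.87 in blood (adjusted p = 0.0049) and 1.61 in thymus (adjusted p = 3.8e-07), each with an SE of 0.15. These comparisons share the spleen libraries and are not independent.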

How the data were processed

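Total RNA of CD4+ iNKT1 cells was sequenced in 20 libraries of 7 groups, which were taken from the labels. Libraries were made with a stranded low-input total RNA kit and read as single ends. Per the authors, trimming was done with Trim Galore 0.4.4, alignment to GRCm38.p6 (GENCODE M17) with STAR, counting with featureCounts and normalization with DESeq2. The deposited signal is the read count of a gene divided by the size factor of its library, in 1 table of 53714 genes. The table also holds the authors' log2 fold changes, test statistics and p-values, which were not used, and 1 emptied line, which is not reported here. Whole reads were recovered from these values, of which 99.977% or more in each library were whole within 0.05 reads. Depth was 9336861 to 22879834 reads per library. Reads carry no molecular identifiers, so errors are SD or SE over libraries.

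Values were analysed as log2(value + 1) with limma 3.58.1 (trend) in R 4.3.3, in 1 fit of 20 libraries for the 14170 genes, all 89 members among them, that reached a value of 10 in 3 or more libraries, with 8 contrasts and 1 test over the 7 groups, Benjamini-Hochberg adjustment over all genes and a threshold of 0.05. Fold changes are on that scale, which understates changes of low genes. Alternatives were quantile normalization, scaling to non-mitochondrial reads, no filter, a pseudocount of 10, edgeR 4.0.16 and DESeq2 1.42.0 on recovered reads, only the groups compared, library range as a block, and each library left out. The fit was checked on simulated data. Sequences are from the RefSeq promoter table and from the GENCODE M21 transcripts of GRCm38.

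The text names the 13 mitochondrial protein genes, the highest and lowest called members of each contrast, the 5 members lowest in p over the groups, the extremes per kb of each complex, isoform sets and members near the limit of 50, and up to 3 called genes of each further list. Others, such as members called in an alternative only, were named after their values were seen. Members and lists were chosen with earlier results of these data known.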

Additional observations from a re-analysis of the deposited data

How the results depend on the processing

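Quantile normalization and a pseudocount of 10 left every count of called members as it was. Over the 7 groups, however, quantile normalization called mt-Cytb in place of Atp5mpl. In blood against spleen, where none was called, library range as a block gave 9 (10.1%, against 7.07% of all genes). The groups compared alone gave 2 (2.25%, against 5.36%). In thymus against spleen, with 1 called, there were 0 after scaling to non-mitochondrial reads, without a filter and with the groups compared alone. With the block there were 5 (5.62%, against 11.8% of all genes). In BL6 liver_H against liver_C, where none was called, DESeq2 called 1 (1.12%, against 2.23% of all genes). In BALB/c, where none was called either, the block gave 1 (1.12%, against 1.42%). Between the strains in liver_H, with 1 called, scaling to non-mitochondrial reads, edgeR and the groups compared alone gave 0. The block gave 3 (3.37%, against 8.54% of all genes). Over the 7 groups, with 4 called, scaling gave 7, DESeq2 10, the block 17 and the 15 BL6 libraries alone 10, while the share of all genes called was 21.2%, 31.5%, 29.1% and 24.1%. The ratio of mitochondrial sums in liver_H against liver_C went from 1.28 to 1.12 in BALB/c, where the groups then overlapped, and from 1.23 to 1.06 in BL6 after scaling to non-mitochondrial reads. The cause of these changes was not tested.

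With each library left out, counts ranged from 0 to 1 in thymus against spleen, 0 to 1 in BALB/c liver_H against liver_C (1 without N0971), 0 to 3 between the strains in liver_C (3 without N1227), 0 to 6 between the strains in liver_H (0 without N0969, N0971 or N0972 and 6 without N1229) and 2 to 10 over the groups (2 without N0963, 9 without N1227 and 10 without N1229), and stayed at 0 in the other comparisons. Of all genes, limma called 3099 of 14102 over the groups without N0963, and 549 of 14100 between the strains in liver_H without N0969. For the other fits the share of all genes is not set beside these counts, so they are no result about the members. The log2 difference of Ndufv3 ranged from -0.66 to -0.35 and that of Atp5l between the strains from 0.97 to 2.24. With 2 or 3 libraries a group, the 95% intervals limit what can be seen, to within 2-fold for 73 to 84 of 89 members in the single comparisons. No paired analysis was possible because the labels carry no replicate numbers and do not tie the libraries of both liver preparations to each other, and library range served as the block instead.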
